A study of Mus musculus with 33 samples.

Results

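Potassium channel genes were read in the frontal cortex of mouse offspring as all genes whose symbol starts with Kcn. Of 95 such rows among the 23366 of each count table, 83 had CPM values (read counts scaled to the total of the library) that summed to 5 or more over the libraries of both tables, and these 83 genes are described here. The remaining 12 were Kcna7, Kcna10, Kcne1, Kcne3, Kcnj1, Kcnk7, Kcnk15, Kcnk16, Kcnk18, Kcnmb3 and Kcnv2, which missed the minimum in both tables, and Kcnn4, whose sum was 4.64 in females and 5.50 in males. C57BL/6 dams, and later the nursing dams together with their pups, breathed filtered air or the aerosol of blu e-cigarettes whose cartridges held either no nicotine or 13 to 16 mg/mL of it, and 1 pup per litter was taken at about 1 month of age. The 33 libraries comprised 6 female pups exposed to air, 5 female pups exposed with nicotine, 5 female pups exposed without nicotine, 6 male pups exposed to air, 6 male pups exposed with nicotine and 5 male pups exposed without nicotine. All groups shared the strain and the handling, but each exposure had a chamber of its own and the particulate load of the aerosols was not matched, so exposure, chamber and load cannot be told apart. Sex is given as labelled, and because females and males were sequenced in separate runs, sex and run cannot be told apart.

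Potassium channels let potassium ions leave, or in some families enter, a cell along their gradient, and they set the resting potential, end the action potential and limit repetitive firing. The Kcn symbols cover pore-forming subunits and the accessory subunits that steer them. In cortex, pyramidal neurons, interneurons and glia each use a different mix, so that inward rectifiers of the Kir3 type follow G protein-coupled receptors in neurons, Kir4.1 buffers potassium in astrocytes and oligodendrocytes, and Kv3 channels serve fast-spiking interneurons. In bulk tissue, fewer cells of a type and less RNA per cell cannot be told apart.

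Read totals lay between 19150562 and 27513174 per female library and between 17845672 and 24787955 per male library. The 83 genes took between 0.542% and 0.651% of the counts of a female library and between 0.555% and 0.636% of the counts of a male library. The cortical label was met in every library, with at least 15055 counts of Slc17a7 (the vesicular glutamate transporter of cortical pyramidal cells) and at least 1057 counts of Tbr1 (a transcription factor of deep-layer cortical neurons). Of the libraries labelled male, 1 went against its label: male nicotine replicate 21 had 215 CPM of Xist and 1 count over the Y-linked genes. Summed CPM of 6 choroid plexus markers exceeded 100 in 4 libraries, which were female air replicates 3 (325 CPM) and 6 (109 CPM), female no nicotine replicate 3 (284 CPM) and male no nicotine replicate 7 (946 CPM).

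Levels between genes were compared in air exposed controls as CPM per kb of the longest annotated transcript, for the 80 genes that the annotation named. Kcnab2, a beta subunit of Kv1 channels, stood highest with 138.5 CPM per kb in females and 139.8 in males. It was followed by the axonal channel Kcna2 (108.3 and 104.5), the inward rectifier Kcnj4 (101 and 109.8) and the glial inward rectifier Kcnj10 (97.2 and 91.6), of which Kcna2 stood above Kcnj4 in females and below it in males, by less than the SD between the libraries of Kcnj4 in males. Other family leaders were the two-pore leak channel Kcnk1 (78.3 and 68.7), the Kv4 partner Kcnip3 (60.7 and 58.5), the ELK channel Kcnh3 (58.9 and 55.6), the Kv3 subunit Kcnc4 (37.6 and 36.8) and the neuronal BK accessory subunit Kcnmb4 (31.1 and 26.9). Kcnrg, which encodes a soluble regulator of channel assembly, had 0.869 and 1.19 CPM per kb. Kcnj15 lay at the bottom with 0.0647 and 0.0410 CPM per kb.

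**Figure D1:**
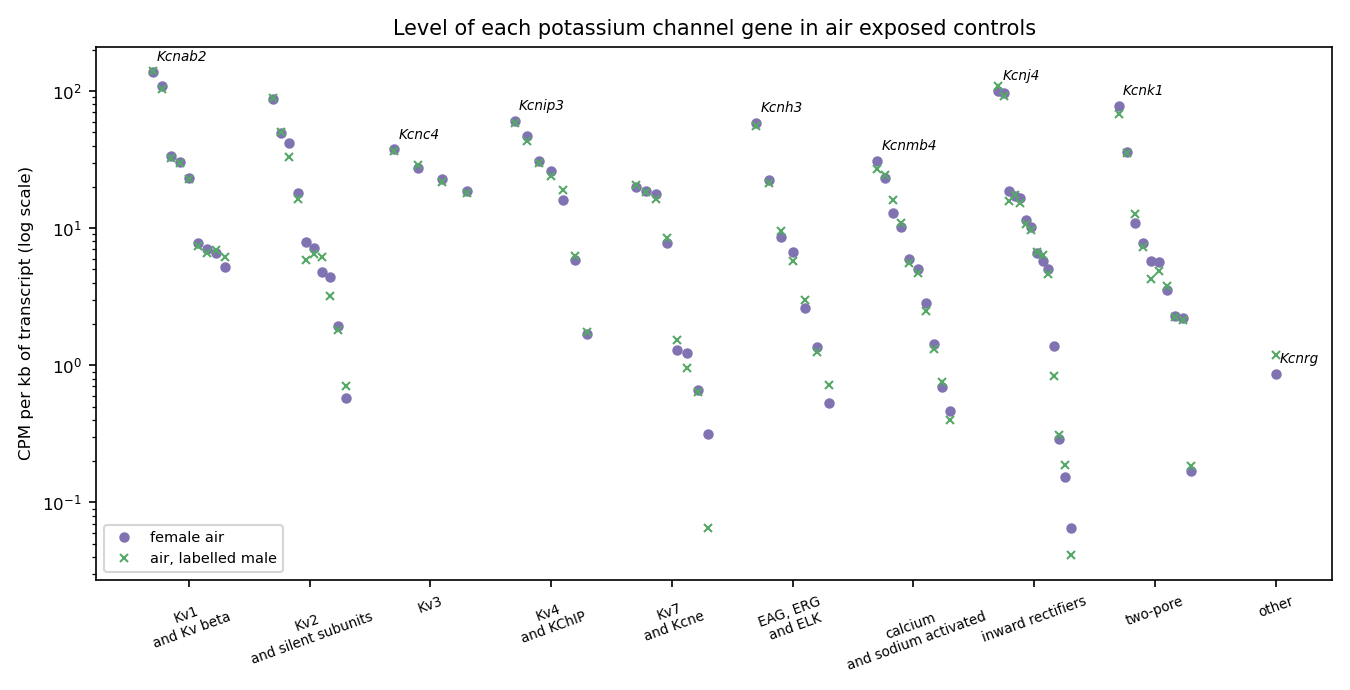
Each point is the mean level of 1 potassium channel gene in air exposed controls, as CPM per kb of transcript on a log axis, with genes sorted by level within 10 families along the horizontal axis. Circles are the 6 female and crosses the 6 male air libraries, and the 2 markers of most genes lie close together, with Kcnab2 highest at 138.5 and 139.8 CPM per kb.

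The first question was which of these genes differed between exposed pups and air exposed controls. When compared to air exposed controls, 11 of the 83 genes (13.3%) passed the threshold of an adjusted p below 0.01 (edgeR quasi-likelihood test) in females exposed with nicotine, against 4.29% of all genes tested. Without nicotine, 23 of 83 (27.7%) passed in females, against 12.1% of all genes, and 21 of 83 (25.3%) passed in males, against 13.6%. Lower levels made up most of these calls. The lower calls numbered 10 in females with nicotine (background 2.32%), 20 in females without nicotine (background 7.03%) and 17 in males without nicotine (background 7.47%). The higher calls numbered 1 (background 1.98%), 3 (background 5.03%) and 4 (background 6.15%) in the same order. In males exposed with nicotine, 0 of 83 genes passed (background 0%), whereas 21 of 83 (25.3%) had an unadjusted p below 0.05, against 14.4% of all genes. The DESeq2 Wald test called 2 genes there, both lower, Kcnj6 among them.

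The group as a whole lay slightly below 0. The median log2 fold change of the 83 genes was -0.11 with nicotine and -0.16 without it for females, and -0.064 with nicotine and -0.098 without it for males, while the median over all genes tested lay between 0.0041 and 0.016. The number of genes below 0 was 54, 56, 52 and 50 of 83 in the same order. These shares were 65.1%, 67.5%, 62.7% and 60.2%, against 49.0%, 47.9%, 47.2% and 46.1% of all genes tested. The absolute changes of the 83 genes were also wider, with a median of 0.28 on the log2 scale in females without nicotine against 0.12 for all genes. In total, 27 genes passed in at least 1 comparison with air. Of those called without nicotine, 17 passed in both sexes, all 17 in the same direction. The same overlap over all genes was not counted, so it is not read as particular to this group. The 11 that females with nicotine gave were called in all 3 comparisons that gave calls, and since both female comparisons use the same air libraries, the values of the pair are given side by side and not as a replication.

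**Figure D2:**
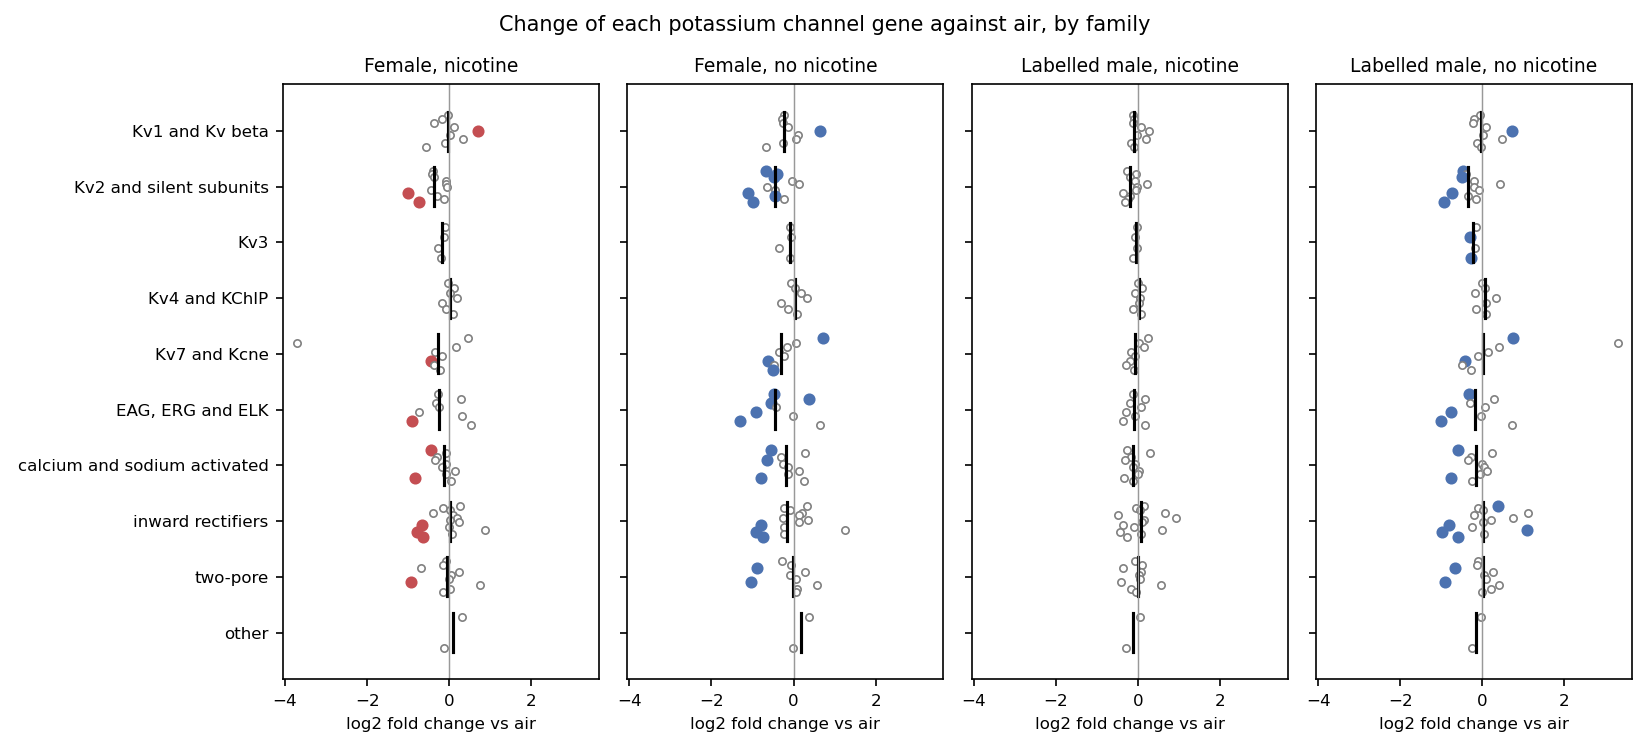
Each point is the log2 fold change against air of 1 of the 83 genes, by family (vertical axis), in the 4 comparisons with air (panels). Filled points passed an adjusted p below 0.01, black bars are family medians, and the 2 far points at -3.70 and 3.30 are Kcne2, which did not pass.

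Cell type markers moved in the same comparisons. Of all genes tested, 2.32%, 7.03% and 7.47% passed as lower in females with nicotine, females without nicotine and males without nicotine. In the same order, 1.98%, 5.03% and 6.15% passed as higher. Of 16 cortical glutamatergic markers, 2, 11 and 10 were lower and 1, 1 and 1 higher in females with nicotine, females without nicotine and males without nicotine, and the 1 higher gene was Foxp2 each time. None of the 16 was at 0 in any library. Their summed level ranged from 3887 to 4772 CPM in female air, from 2781 to 3639 CPM in females with nicotine and from 1883 to 3645 CPM in females without nicotine. The corresponding ranges in males were 3684 to 4316 CPM in air, 2755 to 3636 CPM with nicotine and 1752 to 2830 CPM without nicotine. All 7 basal forebrain cholinergic markers were higher in each of the 3 comparisons with calls. The range of their sum rose from 20.1 to 79.6 CPM in female air to 83.5 to 195 CPM with nicotine and 109 to 289 CPM without nicotine, and from 34.9 to 82.0 CPM in male air to 94.5 to 144 CPM with nicotine and 112 to 238 CPM without nicotine. Of 8 myelin markers 8, 7 and 8 were higher, and their mean log2 CPM ranged from 8.54 to 8.84 in female air, 9.20 to 9.54 with nicotine and 8.97 to 9.58 without nicotine, and from 8.79 to 9.06 in male air, 8.78 to 9.40 with nicotine and 9.22 to 10.07 without nicotine. In addition, of 11 striatal projection neuron markers 4, 2 and 4 were higher. Among 10 GABAergic interneuron markers, 2, 4 and 3 were higher and 1, 3 and 3 lower. No astrocyte (8 genes), microglia (6) or endothelium and pericyte (7) marker passed in any comparison. The thalamus list had 3 of 8 higher each time (Gbx2, Tcf7l2 and Zic1), the olfactory bulb list 1 of 4 (Calb2, females without nicotine), the choroid plexus list 3 of 6 in males without nicotine, and the 1 red blood cell marker tested did not pass.

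With the mean log2 CPM of the 16 cortical markers as a covariate, 0 of the 11, 0 of the 23 and 0 of the 21 genes named above kept their call. Their median absolute log2 change went from 0.72 to 0.35 in females with nicotine, from 0.67 to 0.24 in females without nicotine and from 0.71 to 0.39 in males without nicotine. The direction was kept by 11 of 11, 20 of 23 and 21 of 21 genes. The covariate and the exposure overlap, since the score lay between 6.22 and 6.54 in female air and between 6.23 and 6.34 in male air but between 5.25 and 6.26 in all exposed libraries, so the part of cell composition in these differences was not tested. Leaving out the 4 libraries with choroid plexus markers, an alternative chosen after seeing the data, left 2 calls in females with nicotine (Kcnj9 and Kcnt2), 1 in females without nicotine (Kcnj9) and 22 in males without nicotine, where 18 of the 21 calls were kept. All called genes kept their direction. The fold changes of the called genes shifted by at most 0.088, 0.125 and 0.171 on the log2 scale, and the highest adjusted p among them became 0.0313, 0.0692 and 0.0177. Single libraries decided the female counts as well. With nicotine, 2 genes were called without female nicotine replicate 1 or 2, 3 without female air replicate 6 or female nicotine replicate 6, 5 without female air replicate 5, 6 without female air replicate 2 or 4 and 7 without female no nicotine replicate 4. Without nicotine, 15 genes were called when female no nicotine replicate 2 was left out. With the female replicate number as a block in the fit, 0 genes were called with nicotine and 15 without it.

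**Figure D3:**
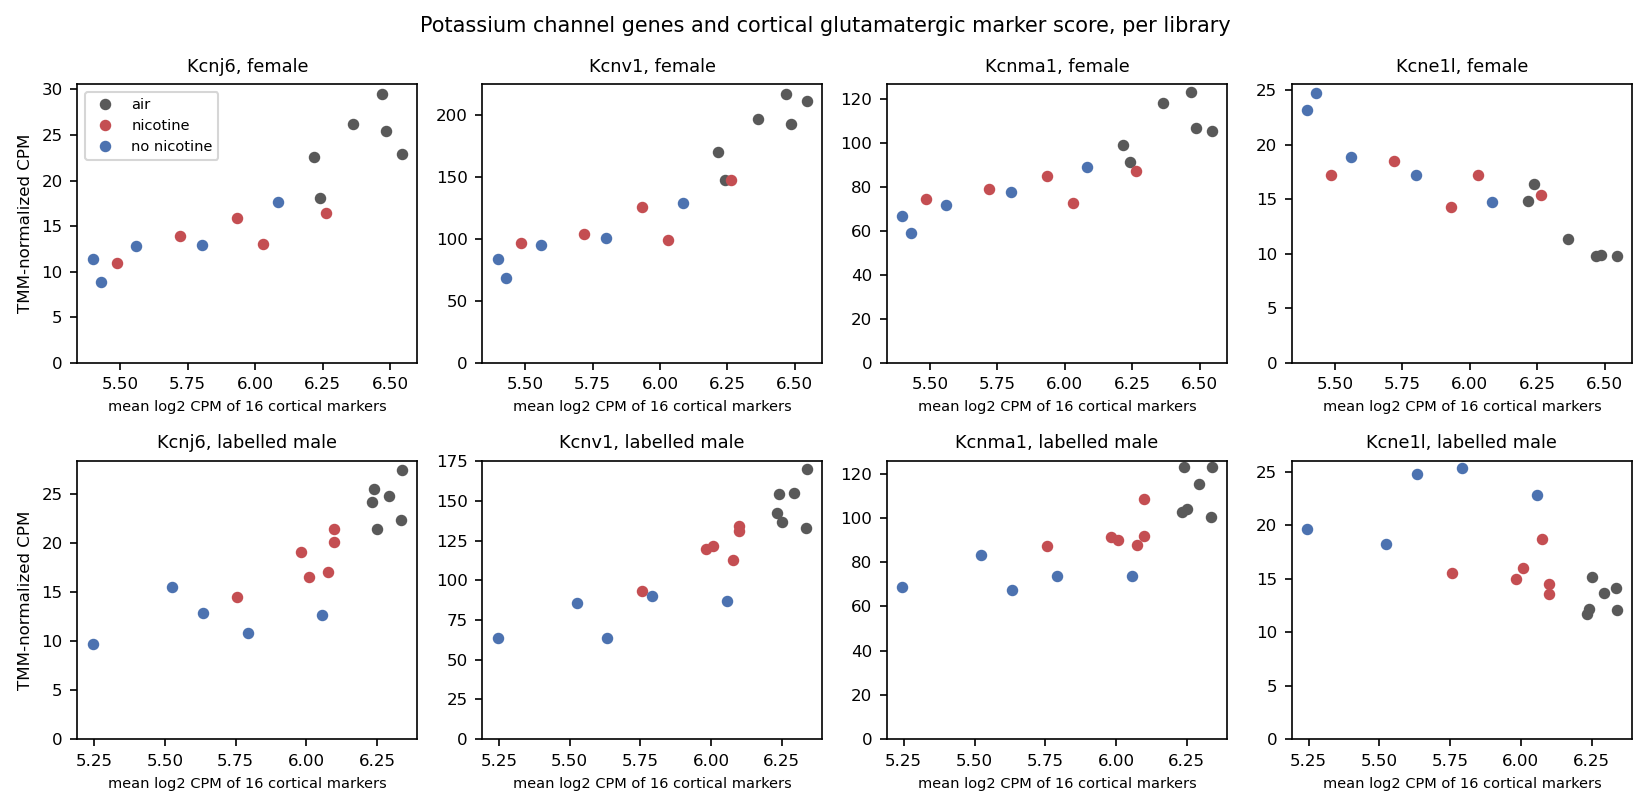
Each point is 1 library, with the mean log2 CPM of 16 cortical glutamatergic markers on the horizontal axis and the normalized CPM of Kcnj6, Kcnv1, Kcnma1 or Kcne1l on the vertical axis, for females (top) and males (bottom). Exposed libraries reach scores down to 5.25 while air libraries stay at or above 6.22, and Kcne1l runs the other way from the other 3 genes.

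Among the 14 inward rectifiers, 3 fell in each of the 3 comparisons with calls, against 2.32%, 7.03% and 7.47% of all genes. In males without nicotine 2 rose, against 6.15% of all genes. The 3 that fell were G protein-gated Kir3 genes. Kcnj3 (GIRK1), Kcnj6 (GIRK2) and Kcnj9 (GIRK3) encode the subunits that join into the neuronal channels opened by GABA-B, muscarinic, opioid and other receptors coupled to inhibitory G proteins. Their mm9 positions are chromosome 2, 55288381 to 55450556 (plus strand) for Kcnj3, chromosome 16, 94970873 to 95219303 (minus strand) for Kcnj6 and chromosome 1, 174251164 to 174259394 (minus strand) for Kcnj9. Kcnj10, the glial Kir4.1 channel and the next Kcn gene along chromosome 1 (174271341 to 174304216, plus strand), rose in males without nicotine. Its female changes of 0.26 with nicotine and 0.33 without it, on the log2 scale, did not pass. The promoters of these 4 genes are shown because the first 3 fell together and the last, beside Kcnj9, was called higher in males. They are RefSeq sequences of GRCm38.p6, a later build than that of the counts, each a window of 300 bases that lies mostly upstream of an annotated start, 5′ to 3′ on the strand of the gene. Capitals mark the GC box (GGGCGG or its complement CCGCCC) and the TATA box (TATAAA or its complement TTTATA). For Kcnj6, which has 2 annotated starts, the more upstream is shown. They lie at chr2:55435720-55436019 (plus) for Kcnj3, chr16:94997647-94997946 (minus) for Kcnj6, chr1:172329273-172329572 (minus) for Kcnj9 and chr1:172340960-172341259 (plus) for Kcnj10.
Kcnj3: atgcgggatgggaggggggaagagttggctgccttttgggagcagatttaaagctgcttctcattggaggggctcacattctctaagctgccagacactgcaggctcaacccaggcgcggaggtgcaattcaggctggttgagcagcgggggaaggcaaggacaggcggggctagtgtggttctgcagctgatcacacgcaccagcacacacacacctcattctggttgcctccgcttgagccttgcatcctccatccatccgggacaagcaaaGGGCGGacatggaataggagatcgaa
Kcnj6: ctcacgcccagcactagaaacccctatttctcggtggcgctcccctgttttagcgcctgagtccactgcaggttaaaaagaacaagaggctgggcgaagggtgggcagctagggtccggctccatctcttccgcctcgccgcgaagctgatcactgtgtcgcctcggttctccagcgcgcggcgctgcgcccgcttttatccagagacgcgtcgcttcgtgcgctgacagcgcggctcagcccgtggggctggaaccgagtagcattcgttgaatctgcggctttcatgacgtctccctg
Kcnj9: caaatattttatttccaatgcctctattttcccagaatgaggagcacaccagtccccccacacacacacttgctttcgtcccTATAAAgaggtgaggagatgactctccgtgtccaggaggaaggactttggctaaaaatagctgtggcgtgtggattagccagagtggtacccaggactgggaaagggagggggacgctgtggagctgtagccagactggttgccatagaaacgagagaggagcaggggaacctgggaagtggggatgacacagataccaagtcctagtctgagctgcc
Kcnj10: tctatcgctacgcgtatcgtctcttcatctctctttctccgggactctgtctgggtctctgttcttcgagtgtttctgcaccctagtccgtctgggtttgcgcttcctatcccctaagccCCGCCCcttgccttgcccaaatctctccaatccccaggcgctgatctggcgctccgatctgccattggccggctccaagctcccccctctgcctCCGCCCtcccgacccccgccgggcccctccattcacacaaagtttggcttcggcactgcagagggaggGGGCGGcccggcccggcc
The Kcnj3 window held 1 GC box, the Kcnj10 window held 3, and the Kcnj9 window held 1 TATA box. The Kcnj6 window held neither. A GC box was present in 35.7% of all 32851 promoter windows in that table and in 48.8% of the 84 windows of 60 genes of this group, and a TATA box in 13.6% and 5.95%. These matches describe letters and not sites in use.

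Kcnj9 CPM was 48.2, 71.3, 44.5, 57.9, 55.03 and 57.6 in the 6 female air libraries, 35.6, 33.1, 41.8, 37.7 and 31.2 with nicotine and 35.4, 30.3, 31.98, 36.3 and 32.6 without nicotine. Every exposed female library lay below every female air library. Males gave 71.2, 58.5, 51.1, 53.4, 58.5 and 51.5 CPM of Kcnj9 in air, 44.2, 47.1, 54.4, 41.5, 47.7 and 49.1 with nicotine and 38.7, 35.3, 38.05, 33.7 and 45.4 without nicotine, where the libraries without nicotine again lay below all air libraries and those with nicotine overlapped them. Kcnj9 fell by 0.64 ± 0.10 (SE) on the log2 scale in females with nicotine, by 0.74 ± 0.10 in females without nicotine and by 0.59 ± 0.09 in males without nicotine (adjusted p = 0.0014, 8.02e-04 and 1.67e-04). Its difference in males with nicotine was -0.28 ± 0.08 (adjusted p = 0.131).

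Kcnj3 CPM in females was 46.6, 68.5, 50.96, 60.2, 70.8 and 64.4 in air, 33.7, 38.6, 42.1, 43.2 and 31.3 with nicotine and 41.5, 28.9, 26.99, 39.8 and 36.8 without nicotine. In males it was 46.99, 56.8, 50.6, 61.4, 63.9 and 56.7 in air, 34.5, 51.7, 39.9, 37.2, 53.4 and 43.1 with nicotine and 38.1, 31.5, 31.2, 27.9 and 30.9 without nicotine. Only the male libraries with nicotine overlapped their air controls. Kcnj3 fell by 0.67 ± 0.13, 0.79 ± 0.13 and 0.81 ± 0.11 on the log2 scale in females with nicotine, females without nicotine and males without nicotine (adjusted p = 0.00379, 9.34e-04 and 6.82e-05), and differed by -0.37 ± 0.10 in males with nicotine (adjusted p = 0.106). Of its exon bases 31.1% lie opposite an antisense gene model (Gm17595), and the strand setting of the counting is not given in the sources used here.

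Kcnj6 CPM in females was 18.1, 25.4, 22.5, 22.9, 29.5 and 26.2 in air, 13.01, 13.95, 16.4, 15.9 and 10.9 with nicotine and 17.6, 8.83, 11.4, 12.9 and 12.8 without nicotine. Male libraries gave 22.3, 24.8, 21.4, 25.5, 27.4 and 24.1 in air, 14.5, 21.4, 16.5, 16.97, 19.01 and 20.03 with nicotine and 15.5, 9.64, 12.8, 10.8 and 12.6 without nicotine. For Kcnj6 every exposed library of either sex lay below every air library of its table. Kcnj6 fell by 0.78 ± 0.15, 0.92 ± 0.15 and 0.98 ± 0.11 on the log2 scale in females with nicotine, females without nicotine and males without nicotine (adjusted p = 0.00356, 9.34e-04 and 2.14e-05). In males with nicotine the difference was -0.43 ± 0.10, with an adjusted p of 0.074 that missed the threshold in edgeR.

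**Figure D4:**
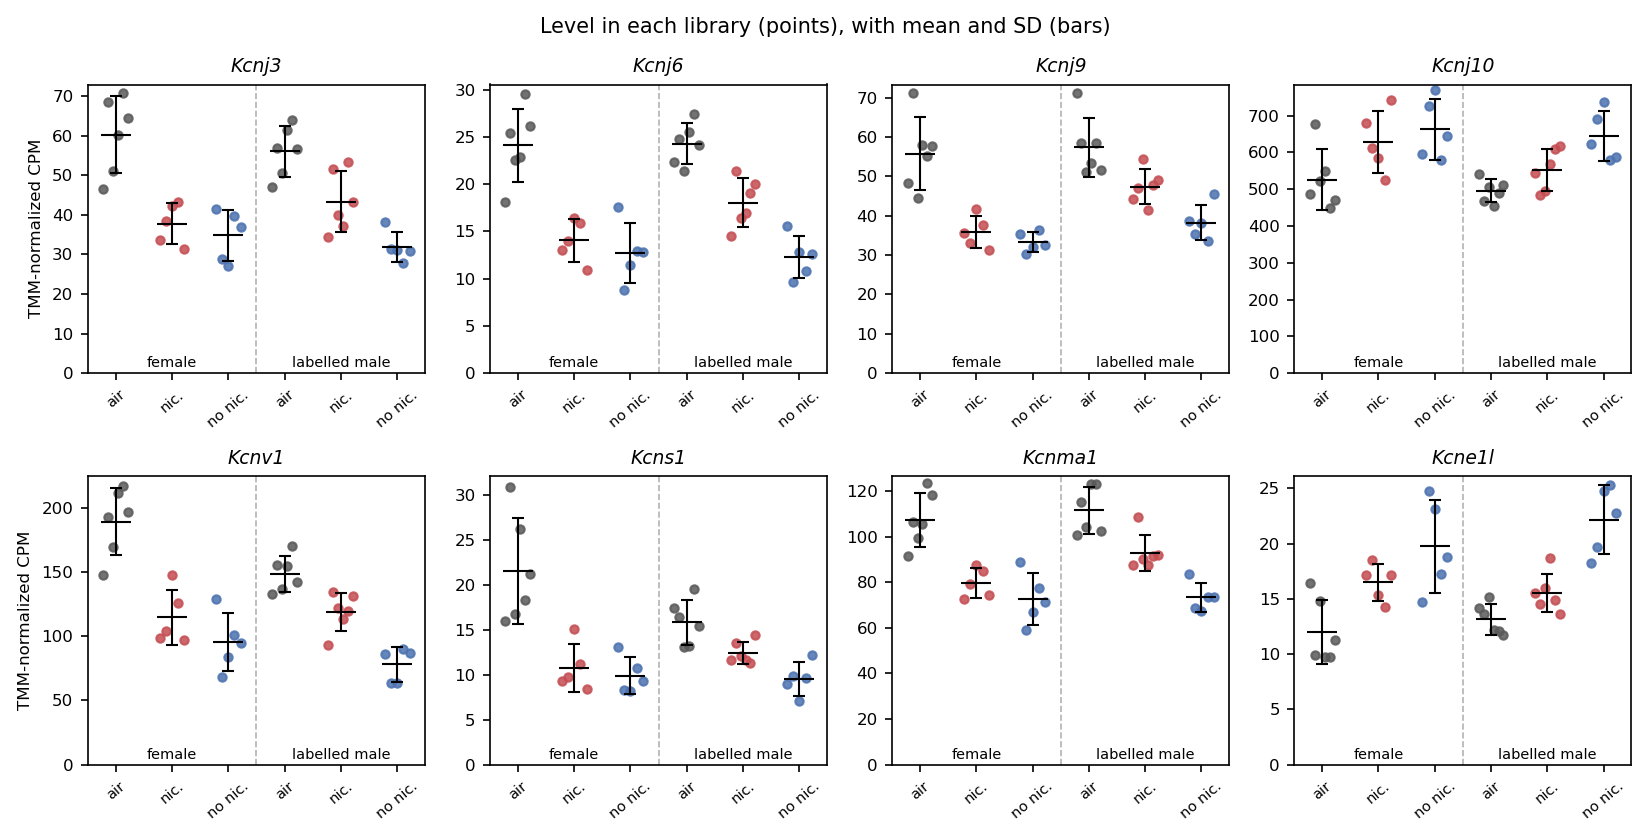
Normalized CPM of 8 genes in every library (points) by exposure, with bars for the mean and SD, females left and males right of the dashed line. Kcnj3, Kcnj6 and Kcnj9 sit lower without nicotine than in air in both sexes, and Kcnj10 and Kcne1l sit higher.

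The fourth Kir3 gene, Kcnj5 (GIRK4, best known from the atrium of the heart), was scarce, with 1.38 ± 0.408 CPM (SD, n = 6) in male air. It rose to 2.94 ± 1.06 CPM (n = 5) without nicotine, a log2 change of 1.09 ± 0.24 (adjusted p = 0.00298). Its change in females without nicotine was 1.24 ± 0.33 and did not pass (adjusted p = 0.0123). Kcnj10 rose in males without nicotine, from 495 ± 31.3 to 644 ± 68.2 CPM (log2 change 0.38 ± 0.07, adjusted p = 0.00111). In females without nicotine its log2 change was 0.33 and did not pass. The male libraries without nicotine held 623, 690.2, 738, 580.0 and 589 CPM of Kcnj10, all above the air range of 453 to 540. Kcnj4, the highest of the family per kb, had log2 differences from air of 0.00, -0.24, -0.09 and -0.25, in the order females with nicotine, females without nicotine, males with nicotine and males without nicotine, and did not pass. The same order holds for each set of 4 values in the text that follows, and sets of 3 values follow it without males with nicotine. Kcnj16, the Kir5.1 partner of Kir4.1, differed by 0.03, 0.35, 0.16 and 0.22, and Kcnj11, the pore of neuronal ATP-sensitive channels, by -0.14, -0.22, -0.04 and -0.10, without a call for either gene. The other 6 genes of the family (Kcnj2, Kcnj8, Kcnj12, Kcnj13, Kcnj14 and Kcnj15) did not pass either.

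In the Kv2 group, Kcnb2 (Kv2.2) forms delayed rectifier channels, and the genes Kcnf, Kcng, Kcns and Kcnv encode silent subunits that conduct only when joined to Kv2. Of the 11 genes, 2, 6 and 4 fell in the 3 comparisons with calls, against 2.32%, 7.03% and 7.47% of all genes. None rose, against 1.98%, 5.03% and 6.15%. The family median was -0.36, -0.45, -0.19 and -0.35 on the log2 scale, in the order females with nicotine, females without nicotine, males with nicotine and males without nicotine, and was the lowest of the 10 families in all 4 comparisons. Kcnv1 (Kv8.1), the most abundant silent subunit called in all 3, had 148, 193, 169.8, 212, 217 and 196 CPM in female air, 98.6, 104, 147, 126 and 96.7 with nicotine and 129, 67.95, 83.4, 101 and 94.8 without nicotine. Male libraries had 133, 155, 137, 154, 169.8 and 142 CPM of Kcnv1 in air, 93.2, 134, 122, 113, 119.6 and 131 with nicotine and 85.8, 63.4, 63.5, 90.4 and 86.9 without nicotine. Every male library without nicotine lay below every male air library, the male nicotine group overlapped air, and in females the highest nicotine library lay just under the lowest air library. Kcnv1 fell by 0.72 ± 0.15, 0.99 ± 0.15 and 0.93 ± 0.11 on the log2 scale (adjusted p = 0.00484, 8.41e-04 and 2.14e-05), the last with the smallest adjusted p of any gene of the group together with Kcnj6.

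Kcns1 (Kv9.1) had 15.98, 30.96, 16.7, 26.2, 18.3 and 21.3 CPM in female air, 9.27, 9.78, 15.1, 11.2 and 8.37 with nicotine and 13.1, 8.29, 8.15, 10.7 and 9.33 without nicotine. Its male values were 17.5, 16.4, 13.1, 13.2, 19.6 and 15.4 CPM in air, 11.6, 13.5, 12.1, 11.6, 11.3 and 14.4 with nicotine and 8.93, 9.86, 7.09, 9.67 and 12.3 without nicotine. The air and no nicotine groups did not overlap in either sex. Kcns1 fell by 1.01 ± 0.19, 1.12 ± 0.19 and 0.74 ± 0.12 on the log2 scale in the 3 comparisons with calls (adjusted p = 0.00317, 9.90e-04 and 3.65e-04).

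Kcnf1 (Kv5.1) fell by 0.47 ± 0.08 in females and 0.48 ± 0.08 in males without nicotine. Kcnb2 fell by 0.40 ± 0.10 and Kcns2 by 0.44 ± 0.10, each in females without nicotine. Their changes in males without nicotine, -0.40 and -0.35, did not pass. Kcng1 and Kcng4, which were never called, differed by -0.07, -0.04, -0.07 and -0.21 and by -0.45, -0.45, -0.05 and -0.09.

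Among the 10 calcium and sodium activated channel genes, 2, 3 and 2 fell in the 3 comparisons with calls. The shares over all genes were 2.32%, 7.03% and 7.47%. None rose, against 1.98%, 5.03% and 6.15%. Kcnma1 encodes the BK channel, which opens on both voltage and calcium and shortens spikes and transmitter release. Kcnma1 CPM in females was 91.4, 107, 99.2, 106, 123 and 118 in air, 72.6, 79.03, 87.4, 84.9 and 74.3 with nicotine and 88.8, 58.9, 66.9, 77.6 and 71.5 without nicotine. In males it was 101, 115, 104, 123, 123 and 103 in air, 87.4, 109, 90.1, 87.8, 91.5 and 91.8 with nicotine and 83.5, 68.7, 67.3, 73.6 and 73.6 without nicotine. Only male nicotine replicate 16, at 109 CPM, reached into the air range of its table. Kcnma1 fell by 0.43 ± 0.09, 0.56 ± 0.09 and 0.60 ± 0.07 on the log2 scale (adjusted p = 0.00753, 9.75e-04 and 2.16e-05). Its neuronal accessory subunit Kcnmb4 fell by 0.65 ± 0.14 in females without nicotine, and 31.5% of its exon bases lie opposite other gene models. The Kcnmb4 change in males without nicotine, -0.35, did not pass.

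Kcnt2 (Slick), a sodium-activated channel, had 12.8, 18.99, 12.8, 16.5, 18.5 and 18.5 CPM in female air, 9.60, 7.93, 9.53, 11.9 and 6.91 with nicotine and 11.3, 8.68, 8.85, 8.81 and 9.25 without nicotine. Its male values were 14.2, 14.98, 10.4, 17.2, 15.3 and 13.6 CPM in air, 9.34, 13.3, 10.2, 10.5, 11.99 and 11.7 with nicotine and 8.51, 7.38, 9.62, 7.49 and 9.28 without nicotine. The groups without nicotine lay below the air groups in both sexes, and the female group with nicotine did so too. Kcnt2 fell by 0.83 ± 0.14, 0.80 ± 0.14 and 0.75 ± 0.12 on the log2 scale (adjusted p = 0.00165, 0.00105 and 1.67e-04). Its paralog Kcnt1 (Slack) differed by -0.07, -0.14, 0.01 and -0.06, and the SK channel Kcnn3 by 0.14, 0.12, 0.03 and 0.11, without a call.

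The Kv7 genes Kcnq3 and Kcnq5 contribute to the M-current, which muscarinic receptors shut, and the Kcne genes encode single-pass accessory subunits. Kcnq3 CPM in females was 41.5, 52.98, 46.4, 50.3, 55.7 and 48.7 in air, 32.5, 33.3, 42.7, 40.9 and 30.97 with nicotine and 36.7, 26.6, 31.6, 33.1 and 32.8 without nicotine. Male libraries gave 45.8, 46.5, 45.4, 56.5, 53.9 and 41.2 in air, 38.7, 45.7, 43.4, 41.8, 38.7 and 45.2 with nicotine and 40.9, 37.3, 27.01, 43.6 and 32.9 without nicotine. The female groups without nicotine and in air did not overlap, whereas all other exposed groups overlapped their controls. Kcnq3 fell by 0.45 ± 0.10, 0.61 ± 0.10 and 0.41 ± 0.10 on the log2 scale (adjusted p = 0.00715, 8.41e-04 and 0.00686). Kcnq5 fell by 0.50 ± 0.12 in females without nicotine, and its change of -0.27 in males without nicotine did not pass. The uncalled accessory gene Kcne4 differed by 0.16, -0.16, 0.14 and 0.41.

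Kcne1l, an accessory subunit also known as Kcne5, was 1 of the few genes that rose. Kcne1l CPM in females was 16.4, 9.92, 14.8, 9.78, 9.75 and 11.3 in air, 17.2, 18.5, 15.4, 14.3 and 17.2 with nicotine and 14.7, 24.8, 23.2, 17.2 and 18.8 without nicotine. In males it was 14.2, 13.6, 15.2, 12.2, 12.1 and 11.7 in air, 15.5, 14.5, 15.98, 18.7, 14.9 and 13.6 with nicotine and 18.3, 19.7, 24.8, 25.3 and 22.8 without nicotine. The male libraries without nicotine lay above all male libraries in air, and the other exposed groups overlapped their controls. The log2 change was 0.72 ± 0.15 in females and 0.75 ± 0.10 in males without nicotine (adjusted p = 0.00316 and 3.60e-05), and 0.46 ± 0.15 and 0.24 ± 0.09 with nicotine, where it did not pass.

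Kcne2, which is known from the choroid plexus epithelium, followed the 4 libraries with choroid plexus markers. It had 48 and 23 counts in female air replicates 3 and 6, 59 in female no nicotine replicate 3 and 117 in male no nicotine replicate 7, and between 0 and 8 counts in the other 29 libraries. Kcnj13 (Kir7.1), another channel of that epithelium, had 97, 46, 95 and 193 counts in the same 4 libraries and 7 to 79 elsewhere, though 49.1% of its exon bases lie opposite Gigyf2. The fitted changes of Kcne2 were -3.70, 0.06, 0.02 and 3.30 on the log2 scale, and neither gene passed the threshold.

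The 8 Kcnh genes belong to the EAG (Kcnh1, Kcnh5), ERG (Kcnh2, Kcnh6, Kcnh7) and ELK (Kcnh3, Kcnh4, Kcnh8) types, voltage-gated channels that shape excitability near threshold. Of the 8, 1, 4 and 3 fell in the 3 comparisons with calls, against 2.32%, 7.03% and 7.47% of all genes. In females without nicotine 1 rose, against 5.03%. Kcnh7 CPM in females was 10.7, 21.4, 14.5, 18.2, 24.5 and 18.9 in air, 8.98, 9.32, 12.2, 11.01 and 6.99 with nicotine and 10.3, 5.10, 6.08, 7.57 and 7.39 without nicotine. In males it was 16.4, 16.5, 11.96, 20.2, 21.3 and 14.2 in air, 10.2, 15.03, 9.53, 12.2, 16.6 and 13.9 with nicotine and 10.8, 7.21, 7.25, 7.29 and 9.33 without nicotine. Libraries without nicotine lay below all air libraries in both sexes, and both nicotine groups overlapped their controls. Kcnh7 fell by 0.90 ± 0.20, 1.30 ± 0.20 and 1.00 ± 0.17 on the log2 scale (adjusted p = 0.00848, 8.41e-04 and 3.20e-04), the widest fall of any called potassium channel gene without nicotine in either sex. Its exons overlap those of Gca on the other strand over 4.57% of their bases. Kcnh1 fell by 0.48 ± 0.10 and 0.33 ± 0.08, and Kcnh5 by 0.91 ± 0.17 and 0.77 ± 0.19, in females and males without nicotine. Kcnh3 fell by 0.54 ± 0.13 in females without nicotine, and its change of -0.31 in males without nicotine did not pass. The ERG gene Kcnh2, best known for its role in cardiac repolarization, rose by 0.37 ± 0.09 in females without nicotine (adjusted p = 0.00638), so that 2 genes of the same type moved in opposite directions. The Kcnh2 change in males without nicotine, 0.28, did not pass. The uncalled genes Kcnh4 and Kcnh6 differed by -0.25, -0.42, 0.08 and 0.06 and by 0.32, -0.01, -0.08 and -0.03.

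**Figure D5:**
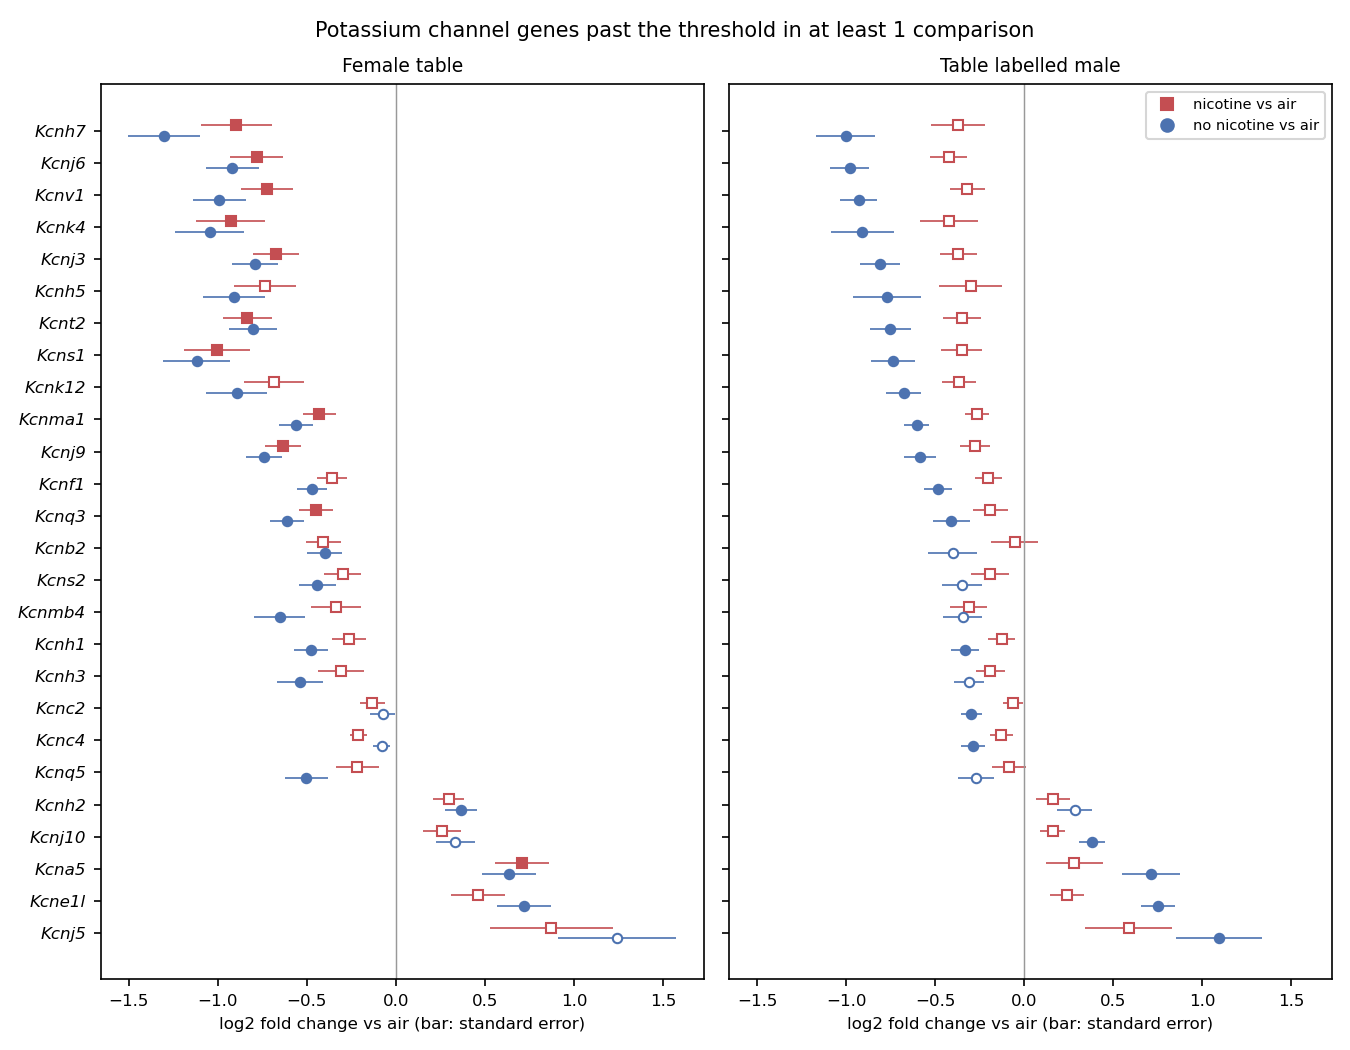
Log2 fold change against air (points) with its standard error (bars) for the genes named in the text that were called in at least 1 comparison, sorted by the male change without nicotine, females left and males right. Filled symbols passed an adjusted p below 0.01, and in males the nicotine value of each gene shown lies nearer 0 than its value without nicotine.

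Two-pore channels set the background leak of potassium. Kcnk4 (TRAAK), a mechanically gated neuronal leak channel, fell by 0.93 ± 0.19, 1.05 ± 0.19 and 0.91 ± 0.18 on the log2 scale (adjusted p = 0.00591, 0.00155 and 0.0011). Kcnk12 (THIK-2) CPM in females was 7.58, 13.9, 10.2, 13.4, 12.7 and 8.34 in air, 6.87, 7.21, 9.03, 6.36 and 5.01 with nicotine and 6.84, 5.50, 6.16, 6.58 and 4.62 without nicotine. Male libraries gave 8.54, 9.82, 8.16, 9.91, 10.7 and 9.88 in air, 6.14, 7.46, 8.40, 7.38, 8.23 and 6.68 with nicotine and 5.67, 5.43, 6.08, 5.37 and 7.20 without nicotine. The groups without nicotine lay below air in both sexes, and those with nicotine overlapped it. Kcnk12 fell by 0.89 ± 0.17 and 0.68 ± 0.10 without nicotine (adjusted p = 0.00181 and 1.21e-04), and its differences of -0.68 ± 0.17 and -0.37 ± 0.09 with nicotine did not pass. The more abundant leak channels Kcnk1 (TWIK-1) and Kcnk2 (TREK-1) differed by -0.08, -0.28, -0.08 and -0.10 and by 0.05, -0.07, 0.03 and 0.04, and the acid-sensitive Kcnk3 (TASK-1) by -0.01, 0.05, 0.05 and 0.08, all without a call.

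Of the 9 Kv1 alpha and beta genes, Kcna5 (Kv1.5) alone passed, and it rose. With 4.29%, 12.1% and 13.6% of all genes called in the 3 comparisons with calls, 1 of 9 lies near the overall share. Kcna5 had 15.6 ± 3.37 CPM in female air (n = 6), 25.5 ± 3.45 with nicotine (n = 5) and 24.3 ± 4.96 without nicotine (n = 5). In males it had 18.5 ± 4.36 CPM in air (n = 6), 22.3 ± 3.69 with nicotine (n = 6) and 30.1 ± 7.23 without nicotine (n = 5). The log2 change was 0.71 ± 0.15 and 0.63 ± 0.15 in females and 0.71 ± 0.16 in males without nicotine (adjusted p = 0.00683, 0.00596 and 0.00395). Its neighbours on mm9 chromosome 6, Kcna1 and Kcna6, were not called. The axonal channels Kcna1 and Kcna2 differed by -0.02, -0.24, -0.12 and -0.07 and by -0.17, -0.29, -0.09 and -0.19, and the beta subunit Kcnab2 by -0.10, -0.26, -0.17 and -0.13.

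Kv3 genes, which permit the fast repolarization of interneurons, gave calls in males without nicotine, where Kcnc2 fell by 0.30 ± 0.06 and Kcnc4 by 0.29 ± 0.07. The corresponding female differences were -0.07 ± 0.07 and -0.08 ± 0.05, and the difference between the sexes did not pass for either (adjusted p = 0.945 for both, edgeR). Kcnc1 differed by -0.11, -0.08, -0.02 and -0.15 and was not called. None of the 7 genes of Kv4 channels and their KChIP partners, which carry the A-type current of dendrites, was called in any comparison. Their family medians lay between 0.020 and 0.075 on the log2 scale. Kcnip3, Kcnd2 and Kcnip2 differed by -0.09, -0.14, -0.11 and -0.16, by 0.12, 0.02, 0.10 and 0.07 and by -0.17, -0.31, 0.03 and 0.08. Neither Kcnrg (-0.12, -0.02, -0.30 and -0.26) nor the long noncoding RNA Kcnq1ot1 (0.31, 0.38, 0.05 and -0.04) was called. Kcnq1ot1 had no match in the annotation, so its exon overlap with Kcnq1, on the opposite strand, was not measured.

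The second question was whether nicotine in the aerosol made a difference between the exposed groups. In females 0 of 83 genes passed between nicotine and no nicotine (background 0%), with 13 of 83 (15.7%) at an unadjusted p below 0.05 against 8.36% of all genes, and DESeq2 also called 0. In males 1 of 83 passed, against 0.248% of all genes, and 27 of 83 (32.5%) had an unadjusted p below 0.05, against 20.1%. The called gene was Kcnv1, higher with nicotine by 0.61 ± 0.11 on the log2 scale (adjusted p = 0.0089). Without the library whose Xist level went against its label, the value was 0.61 with an adjusted p of 0.0198 and the call was lost. No gene was called either without any 1 of male air replicates 31, 33, 37, 38 and 39, male nicotine replicates 16, 17 and 22 and male no nicotine replicates 3, 4 and 5. The 4 genes next by p in males were also higher or, for Kcne1l, lower with nicotine, that is, nearer to air. Kcne1l differed by -0.51 ± 0.10, Kcnj6 by 0.56 ± 0.11, Kcnma1 by 0.34 ± 0.07 and Kcnj3 by 0.44 ± 0.11, none of which passed.

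The 5 genes with the smallest p in females were Kcnj8, Kcnj16, Kcnc4, Kcng3 and Kcna1. Kcnj8, the ATP-sensitive channel of pericytes and vascular smooth muscle, had 12.2, 10.8, 13.9, 9.25 and 11.4 CPM with nicotine and 10.6, 8.73, 9.75, 9.43 and 8.26 without. Kcnj16 had 74.1, 64.9, 73.6, 57.4 and 79.2 CPM with nicotine and 83.1, 87.1, 102, 88.3 and 76.7 without. Kcnc4 had 96.8, 96.5, 95.9, 92.5 and 108 CPM with nicotine and 106, 103, 105, 109.5 and 113 without. The groups with and without nicotine overlapped for each of these 3 genes. Kcng3, a silent Kv2 partner, had 2.59, 1.60, 2.16, 2.15 and 0.93 CPM with nicotine and 1.63, 1.18, 1.29, 0.827 and 1.28 without. Kcna1 had 276, 309, 313, 300.3 and 292 CPM with nicotine and 275, 241, 235, 269 and 267 without. The Kcng3 groups overlapped, while the Kcna1 groups did not. The differences were 0.30 ± 0.11, -0.32 ± 0.12, -0.13 ± 0.05, 0.59 ± 0.24 and 0.21 ± 0.09 on the log2 scale, with adjusted p-values of 0.57 or more.

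The third question was whether the change against air differed between the sexes. Over the 15105 genes tested in both tables, 0 potassium channel genes passed in edgeR for nicotine (background 0%) and 0 for no nicotine (background 0%). At an unadjusted p below 0.05 there were 4 of 83 genes (4.82%, against 6.47% of all genes) for nicotine and 9 of 83 (10.8%, against 4.91%) for no nicotine. The smallest p belonged to Kcns1, whose nicotine change was -1.01 in females and -0.35 in males, a difference of 0.64 ± 0.23 (SE) with an adjusted p of 0.60. The other 3 for nicotine were Kcnt2, Kcnj9 and Kcnv1, each nearer 0 in males. That calls appeared in females with nicotine and not in males is therefore not shown to be a difference between them. The 9 for no nicotine were Kcnu1, Kcnd3, Kcnc4, Kcnh4, Kcnc2, Kcnn1, Kcnq1ot1, Kcnab3 and Kcnj15, without a shared pattern. Kcnu1 changed by 0.26 in females and -0.26 in males. Kcnc4 (-0.08 and -0.29) lay further from 0 in males, and Kcnab3 (-0.66 and -0.04) nearer.

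Proteins that work with potassium channels were read in the same fits. Of 24 tested partners (pacemaker channels, auxiliary and anchoring proteins), 3, 5 and 4 were lower in the 3 comparisons with calls, against 2.32%, 7.03% and 7.47% of all genes tested. In the same order 0, 1 and 1 were higher, against 1.98%, 5.03% and 6.15%. Their median change was 0.012, -0.027 and -0.013 on the log2 scale. Lgi1, a secreted ligand of the Kv1-associated receptor Adam22, differed by -0.22, -0.20 and -0.27 and passed in all 3, and Adam22 fell by 0.17 in males without nicotine. Rgs7, which speeds the closing of Kir3 channels, fell by 0.34 and 0.40 in females and males without nicotine, and Rgs4 by 0.82 in females without nicotine. Dpp10, a Kv4 auxiliary subunit, fell by 0.28 in females with nicotine, and Abcc8, the regulatory subunit of ATP-sensitive channels, fell by 0.41 in females without nicotine. The 1 higher partner was Hcn3 (0.61 in females and 0.40 in males without nicotine).

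Among 14 pumps and cotransporters that move potassium, 2, 2 and 0 were higher (1.98%, 5.03% and 6.15% of all genes) and 1, 3 and 3 lower (2.32%, 7.03% and 7.47% of all genes), with a median change of 0.045, 0.11 and 0.063 on the log2 scale. Slc12a2 (NKCC1), which loads chloride with potassium, rose by 0.41 and 0.33 in the female comparisons. Atp1b3, a beta subunit of the sodium pump, rose by 0.17 and 0.24 there. Slc12a5 (KCC2), the neuronal chloride extruder, fell by 0.19 in females without nicotine. Fxyd7, a pump regulator of neurons and glia, fell by 0.68 and 0.44 in females and males without nicotine. No gene of these 2 lists passed in males with nicotine (background 0%).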

How the data were processed

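Frontal cortex RNA of 16 female and 17 male pups was sequenced as single reads, with the sexes in separate runs. The authors aligned the reads with Bowtie to the mm9 transcriptome, removed duplicates with SAMtools and deposited HTSeq read counts per gene, 1 table per sex. Removal of duplicates caps the counts of abundant genes. Their normalized tables were not used, and 1 of 34 count columns matched no sample. Library totals ran from 17845672 to 27513174 reads.

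Each table was fitted with its 3 groups in edgeR 4.0.16 (R 4.3.3; TMM normalization, quasi-likelihood test), for genes whose CPM summed to 5 or more. Benjamini-Hochberg adjustment covered all genes tested (15158 female, 15293 male, 15105 in both), and a call is an adjusted p below 0.01. Fold changes are log2 with a standard error (SE), and levels are normalized CPM. Sex differences came from 1 fit of both tables. DESeq2 1.42.0 and other settings served as alternatives. The tests were tested on simulated data. The genes and the lists were chosen with earlier results of these data known.

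Named are all called genes, the 5 with the smallest p in each comparison with every library, the highest per kb in each family, and up to 2 further uncalled genes of the highest CPM. Each library is 1 pup from its own litter. Some genes that this rule names are not reported here, although the counts include them.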

Additional observations from a re-analysis of the deposited data

Results flagged for a closer look

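Among 17 potassium channel genes with library values, 4 of 102 combinations of gene and group held a library far from the others of its group by Dixon's criterion, which chance alone meets in about 1 of 20 groups. Kcnc4 stood at 108 CPM in female nicotine replicate 6, where the next library had 96.8. Kcnj9 reached 71.16 CPM in male air replicate 30, with 58.5 in the next. Kcnma1 had 108.7 CPM in male nicotine replicate 16 against 91.8, and Kcnt2 had 11.29 CPM in female no nicotine replicate 1 against 9.25.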

How the results depend on the processing

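DESeq2 size factors, upper quartile scaling and both other filters (no filter, or 10 counts in 5 libraries) kept all counts of called potassium channel genes within 1.5 times. The DESeq2 Wald test called 17 genes (16 lower) in females with nicotine, 28 (5 higher) in females without, 2 (2 lower) in males with nicotine and 7 (6 higher, 1 lower) between the male exposed groups, where a fit of those 2 groups alone called 0 (0 higher). With the cortical marker covariate, females had 0 calls (0 higher, 0 lower) with and without nicotine, males without nicotine 1 (Kcne2; 1 higher, 0 lower) and the male exposed groups 1 (0 higher, 1 lower). Kcnh3 (0.0041), Kcnmb4 (0.047) and Kcnq5 (0.011) then turned above 0 in females without nicotine on the log2 scale; the covariate overlaps with exposure. Without the 4 choroid plexus libraries, females had 2 calls (0 higher, 2 lower) with and 1 (0 higher, 1 lower) without nicotine; 3 of the 4 were female, so fewer libraries also entered those fits.

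Leaving out 1 library at a time gave 2 to 15 calls in females with nicotine (0 to 1 higher, 2 to 14 lower), 15 to 30 in females without nicotine (0 to 6 higher, 15 to 24 lower), 17 to 23 in males without nicotine and 0 to 5 between the male exposed groups (0 to 4 higher, 0 to 1 lower). Of 56 called gene results 32 kept their call in every such fit and 0 reversed.

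Whether female replicate numbers pair the samples was left undecided. Deviations of 14 same-numbered pairs correlated at -0.27 to 0.27 (median 0.014, against -0.0040 for other pairs), and 4 of them exceeded 0.1. Of 16 libraries, 7 correlated best with their own number. The replicate block gave 0 calls (0 higher, 0 lower) with nicotine and 15 (1 higher, 14 lower) without nicotine. At an unadjusted p below 0.05 it gave 38 and 49. Low counts limit Kcne2, Kcnj15 and Kcnk5.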
